A study of Mus musculus with 15 samples.

Results

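The genes examined here carry long-chain fatty acids from the blood to the mitochondrial matrix of the heart. They were chosen by symbol: Cd36, Lpl, Fabp3, Slc27a1, Acsl1, Cpt1b, Cpt2, Slc25a20 and Crat, 9 genes in all. On the array, 7 of the 9 had a probe set annotated to them alone, with 11 probe sets among 12422, and Acsl1 and Cpt1b were not analysed here. A probe set is a group of short oligonucleotides whose signals are combined into 1 intensity for a transcript. Of the 11, 9 were bright enough to be tested together with 7453 probe sets in all, and each of the 7 genes had at least 1 of them. The 2 that were not tested, a second probe set of Cd36 and one of Cpt2, lay below the floor of 20 intensity units on every array, apart from 1 male sham array with 22.4 for Cpt2.

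Total RNA of mouse left ventricle was hybridised to 15 arrays, in a study of hypertrophy caused by pressure overload. TAC, in general use, is transverse aortic constriction, an operation that narrows the aorta so that the left ventricle pumps against a raised pressure, and sham animals served as its controls. The groups were female TAC (n = 3), male TAC (n = 3), female sham (n = 3) and male sham (n = 6). The labels give no strain, age or time after the operation, and do not say that each heart came from a separate animal, so a p-value covers no more than the variation among the samples at hand, which may be technical. As a check of the operation, Nppa, the atrial natriuretic peptide gene that a loaded ventricle expresses, was 7.11-fold higher in TAC than in sham hearts (limma, adjusted p = 1.29e-06).

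The heart takes most of its energy from fatty acids. Lpl, lipoprotein lipase, is made by cardiomyocytes and frees fatty acids from circulating triglyceride at the vessel wall. Cd36 and Slc27a1 (fatty acid transport protein 1) help them across the plasma membrane, and Fabp3, the heart fatty acid binding protein, carries them in the cytosol. After activation to acyl-CoA, the acyl group is moved to carnitine on the outer mitochondrial membrane, crosses the inner membrane through the exchanger encoded by Slc25a20, and is returned to CoA by Cpt2. Crat moves short acyl groups such as acetyl between CoA and carnitine inside the matrix. Many of these genes are known targets of the nuclear receptor PPAR-alpha.

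The DNA upstream of 3 of these genes, Slc25a20, Cpt2 and Fabp3, is shown. They were picked after their values were seen. Taken as deviations from the group means over the 15 arrays, Slc25a20 and Cpt2 had Pearson r = 0.65 with each other. Fabp3 had -0.53 with Slc25a20 and a weaker -0.31 with Cpt2. By the same deviations, the array medians had Pearson r = 0.62 with Slc25a20, 0.68 with Cpt2 and -0.56 with Fabp3. A link between the DNA and this variation was not tested. The 250 bases before the start of the transcript come from RefSeq (build GRCm38.p6), whose promoter table held 6 of the 9 genes. Capitals mark the GC box GGGCGG, a binding motif of Sp1-type factors, on either strand. The windows are chr9:108661886-108662135 on the plus strand for Slc25a20, chr4:107923590-107923839 on the minus strand for Cpt2, and chr4:130308488-130308737 on the plus strand for Fabp3.
Slc25a20: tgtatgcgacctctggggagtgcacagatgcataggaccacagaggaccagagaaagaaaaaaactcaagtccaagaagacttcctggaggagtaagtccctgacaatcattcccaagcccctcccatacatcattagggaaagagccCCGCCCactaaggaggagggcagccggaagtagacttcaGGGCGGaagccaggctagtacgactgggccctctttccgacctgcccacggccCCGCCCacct
Cpt2: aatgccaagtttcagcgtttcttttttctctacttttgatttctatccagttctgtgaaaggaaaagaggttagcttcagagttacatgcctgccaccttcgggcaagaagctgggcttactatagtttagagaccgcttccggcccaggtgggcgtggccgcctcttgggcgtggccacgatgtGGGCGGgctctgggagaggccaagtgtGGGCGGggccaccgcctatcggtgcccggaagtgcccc
Fabp3: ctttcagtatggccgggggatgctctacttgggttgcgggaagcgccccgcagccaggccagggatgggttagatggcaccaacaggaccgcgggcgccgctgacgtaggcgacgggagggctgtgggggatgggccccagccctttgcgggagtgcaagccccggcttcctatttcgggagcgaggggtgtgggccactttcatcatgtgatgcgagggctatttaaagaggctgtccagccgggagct
The window of Slc25a20 held 3 GC boxes and that of Cpt2 held 2, while that of Fabp3 held none. Of the other windows of these genes, that of Cd36 held 2 and those of Acsl1 held 4 and 0. Those of Slc27a1 held 0, 1 and 3. Of 32851 windows of the same length, 32.7% held at least 1. By the same deviations over the 15 arrays, Slc27a1 had Pearson r = 0.15 with each of Cpt2 and Slc25a20. Cd36 had 0.66 with Cpt2 and 0.28 with Slc25a20. The direct repeat of AGGTCA with 1 base between the copies, which PPAR and RXR bind, was in none of the 9 windows of these genes and in 0.0335% of all windows, also read on both strands. A single AGGTCA, which overlaps that repeat, was in the Cd36 window and in 14.0% of all. A match is a description of letters and not a bound site.

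The first question was how the transport genes differed between TAC and sham ventricles, taken within each sex and averaged. No member gene passed the test. Crat came closest, with 0.750 of the sham level in TAC hearts (95% interval 0.632 to 0.891), and Cpt2, Lpl and Cd36 had point estimates of 0.809, 0.841 and 0.842. Slc27a1, Fabp3 and Slc25a20 were between 0.938 and 1.03 of the sham level. On the log2 scale, 6 of the 7 genes had a value below 0, as did 58.2% of all probe sets tested, and the median over the 7 was -0.25 against -0.03 over all. By limma with Benjamini-Hochberg adjustment, 0 of the 9 member probe sets and 0.322% of the 7453 had an adjusted p under 0.05. At an unadjusted p under 0.05 there were 2 of the 7 genes, Crat and Cpt2, beside 7.51% of all probe sets, and Crat alone without female TAC 1.

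**Figure D1:**
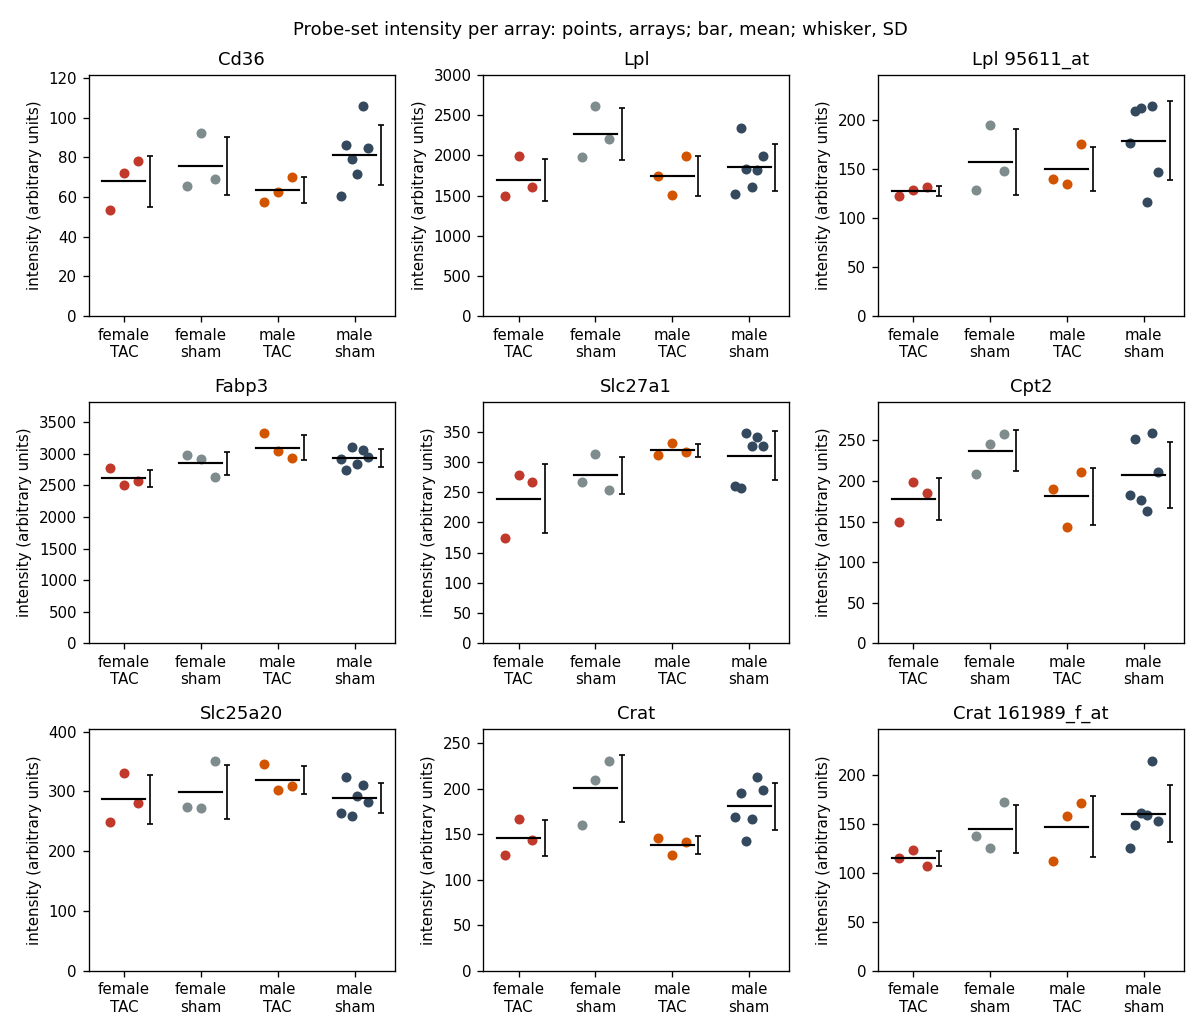
Intensity in arbitrary units (vertical axes, from 0) of the 9 tested member probe sets on each of the 15 arrays, by group; points are arrays, horizontal bars group means and whiskers SD, and panels with a number after the symbol hold the second probe set of Lpl and of Crat. For Crat the male TAC arrays lie between 127 and 146, with 1 of them above the lowest male sham array, while for Fabp3 all 15 arrays lie between 2506 and 3323.

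Lpl acts first in this route, and its brighter probe set read 1493, 1988 and 1606 units in female TAC hearts, against 1980.2, 2611 and 2198 in female sham hearts. In male TAC hearts it read 1739.8, 1504 and 1999, and the male sham hearts had a lowest value of 1521, a median of 1829 and a highest of 2344. In females only female TAC 2 reached the sham range, by a margin smaller than the spread, and in males the groups overlapped, with male TAC 5 just below the lowest sham array. The averaged log2 change was -0.25 ± 0.12 (SE), with limma's adjusted p = 0.670, and the changes were -0.42 ± 0.18 in females (adjusted p = 1) and -0.08 ± 0.16 in males (adjusted p = 0.980). A dimmer Lpl probe set gave a similar averaged value of -0.26 ± 0.15 (adjusted p = 0.748). It read 122, 129 and 132 in female TAC hearts and 129, 195 and 148 in female sham hearts. In male TAC hearts it read 139.7, 135 and 176, against 117 to 215 with a median of 193 in male sham hearts. The groups of each sex overlapped on this probe set as well.

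Cd36 takes up long-chain fatty acids at the cell surface. Its probe set read 53.7, 72.2 and 78.2 in female TAC hearts, against 65.7, 92.4 and 69.1 in female sham hearts. Male TAC hearts had 57.8, 62.7 and 70.3, against a lowest value of 60.6, a median of 81.9 and a highest of 106 in male sham hearts. All 3 male TAC arrays lay below the male sham median, but the groups overlapped. The averaged log2 change was -0.25 ± 0.13 (SE; limma, adjusted p = 0.734), with -0.16 ± 0.20 in females and -0.34 ± 0.17 in males. Without female TAC 1, the array with the lowest median, the change in females was 0.0048, so the female value rested on that array.

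Slc27a1, the acyl-CoA synthetase and transport protein of the plasma membrane, read 174, 279 and 266 in female TAC hearts and 267, 313 and 253 in female sham hearts. It read 311, 331 and 316 in male TAC hearts, within the male sham range of 257 to 347 around a median of 327. Female TAC 1 was the lowest of the 15 arrays for this gene, and the other two female TAC arrays lay within the female sham range. The averaged log2 change of -0.09 ± 0.12 (SE; limma, adjusted p = 0.908) became 0.016 without female TAC 1.

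Fabp3 was the steadiest member. Female TAC hearts had 2769, 2506 and 2563 units and female sham hearts 2989, 2924 and 2636. Male TAC hearts had 3323, 3048 and 2928, against a lowest value of 2737, a median of 2935 and a highest of 3104 in male sham hearts. The groups overlapped in both sexes, and TAC hearts averaged 0.984 of the sham level with a 95% interval of 0.873 to 1.11 (log2 -0.02 ± 0.08, limma, adjusted p = 0.966). The SD of its log2 values around the group means was 0.080, and 0.201% of all tested probe sets had a smaller one. Bright probe sets vary less: of the 66 with a mean of 1000 units or more, the median SD was 0.178, and 4 had a smaller SD than Fabp3. Lpl, the other member in this bright class, had 0.214.

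In the carnitine shuttle, Slc25a20, the carnitine-acylcarnitine exchanger, stayed near its sham level. It read 248, 331 and 281 in female TAC hearts, against 274, 272 and 351 in female sham hearts. In male TAC hearts it read 345, 302 and 308, against 259 to 324 with a median of 287 in male sham hearts. The averaged log2 change was 0.04 ± 0.10 (SE; limma, adjusted p = 0.951), and the 95% interval of the ratio ran from 0.887 to 1.19.

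Cpt2, carnitine palmitoyltransferase 2 of the inner membrane, had 149, 199 and 185 units in female TAC hearts, against 209, 245 and 258 in female sham hearts, with no overlap. In male TAC hearts it had 190.1, 143 and 211, and in male sham hearts a lowest value of 163, a median of 197 and a highest of 259, so that the male groups overlapped. Its averaged log2 change was -0.31 ± 0.13 (SE), with an unadjusted p of 0.0350 and an adjusted p of 0.605 in limma. For Cpt2, an exact two-sided permutation test that exchanged TAC and sham only among hearts of one sex, with 1680 arrangements, gave p = 0.0423. Without male TAC 5, its lowest array, the change was -0.22.

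Crat, carnitine acetyltransferase, had the largest difference in size among the 9 member probe sets. Its brighter probe set read 127, 167 and 144 in female TAC hearts, against 160.0, 210.1 and 231 in female sham hearts. Male TAC hearts had 146, 127 and 141, against a lowest value of 143, a median of 182 and a highest of 213 in male sham hearts. In each sex a single array made the groups overlap, female TAC 2 above the lowest female sham array and male TAC 4 above the lowest male sham array. The group means were 146 ± 20 in female TAC and 200.3 ± 36.4 in female sham hearts (SD, n = 3 each), and 138 ± 9.8 in male TAC (SD, n = 3) and 181 ± 26 in male sham hearts (SD, n = 6). The log2 change was -0.41 ± 0.12 averaged, -0.45 ± 0.18 in females and -0.38 ± 0.15 in males (SE), with adjusted p of 0.235, 0.971 and 0.702 in limma. The averaged difference ranked 81 by p among 7453, and the same exact permutation test gave p = 0.00476 for Crat, unadjusted and two-sided. For the member probe sets other than this one and Cpt2, that permutation test gave p from 0.0756 (the brighter Lpl probe set) to 0.654 (Fabp3).

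The second Crat probe set differed less. It read 114, 123 and 107 in female TAC hearts, below all of 137, 125 and 172 in female sham hearts. In male TAC hearts it read 112, 158 and 171, against 125 to 214 with a median of 156 in male sham hearts, and male TAC 4 alone lay below the male sham range. Its averaged log2 change was -0.23 ± 0.13 (SE; limma, adjusted p = 0.750), and -0.13 without male TAC 4. The exact permutation test gave an unadjusted p = 0.0946 for this probe set. Its identifier carries the suffix f, which marks oligonucleotides that can bind transcripts of a gene family, and across the 15 arrays its deviations from the group means followed those of the first Crat probe set only weakly (Pearson r = 0.28, Spearman rho = 0.23). The size of the Crat difference therefore rests on 1 probe set.

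**Figure D2:**
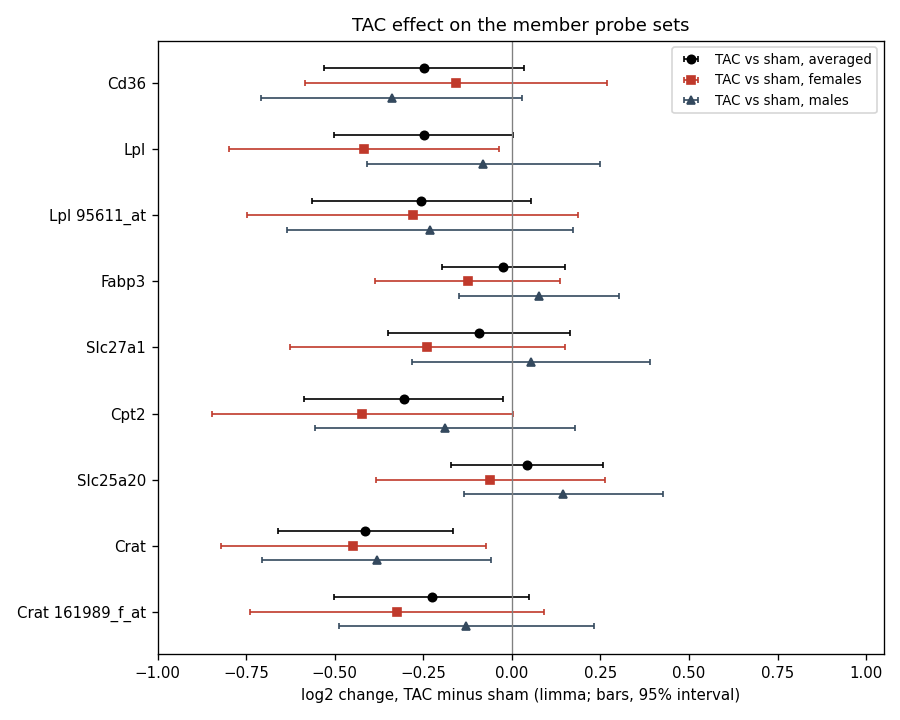
Log2 change between TAC and sham hearts (horizontal axis) for each member probe set, with 95% intervals from limma, averaged over the sexes (circles), in females (squares) and in males (triangles). The averaged intervals of Crat and Cpt2 lie below 0 before adjustment, and that of Slc25a20 runs from -0.17 to 0.26.

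Taken sex by sex, all 7 genes had a log2 change below 0 in females, with a median of -0.24, and 4 of 7 in males, with a median of -0.08. Over all probe sets the shares below 0 were 58.7% in females and 52.7% in males. No member was called in either sex, where limma called 0.0805% of all probe sets in females and 0.134% in males. At an unadjusted p under 0.05 there were 2 of the 7 genes in females (Lpl and Crat), beside 4.59% of all, and 1 in males (Crat), beside 6.2%. Groups that did not overlap, with TAC lower, were found for 2 of the 9 member probe sets in females (Cpt2 and the second Crat probe set), beside 5.74% of all tested, and for 0 of 9 in males, beside 1.54%. Female TAC 1 weighed on the female values: 48.4% of its probe sets lay below 20 units, against 42.4% to 45.2% on the other arrays. Without it, 5 of the 7 genes had a value below 0 in females, with a median of -0.17 and none at an unadjusted p under 0.05, and the female value of Slc27a1 was -0.022 in place of -0.24.

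Whether the response to TAC differed between females and males was tested as an interaction, and no member gene was called by limma, as no probe set was (0% of 7453). At an unadjusted p under 0.05 there were 0 of the 7 genes and 2.56% of all probe sets. The member values, female minus male, ran from -0.34 ± 0.24 for Lpl to 0.18 ± 0.27 for Cd36 (SE; limma, adjusted p = 1.00 for both). The SEs of 0.16 to 0.29 on the log2 scale bound what these arrays could detect in the members.

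Between the sexes without regard to the operation effect, no member was called by limma either, in TAC or in sham hearts (0% of all probe sets in both). At an unadjusted p under 0.05 there was 1 of the 7 genes in TAC hearts (Slc27a1), beside 4.21% of all, and 0 in sham hearts, beside 4.71%. In TAC hearts, 3 of the 9 member probe sets were lower in females without overlap, beside 3.65% of all tested, namely Slc27a1, Fabp3 and the dimmer Lpl probe set. Slc27a1 had the largest of these differences, -0.45 ± 0.18 (female minus male, SE; adjusted p = 0.999), which was -0.23 without female TAC 1. Fabp3 had -0.25 ± 0.12 and the dimmer Lpl probe set -0.23 ± 0.22 (adjusted p = 0.999 for both), and the value of that Lpl probe set was -0.11 without male TAC 6. In sham hearts the Lpl value was 0.29 ± 0.16, female minus male (adjusted p = 0.974), and the other member genes lay between -0.15 and 0.21.

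The member genes were next set beside the rest of the pathway, by lists of other fatty acid genes. Of the beta-oxidation enzymes, which shorten the acyl-CoA once it is inside the matrix, 15 of 19 were tested, and all 15 had an averaged log2 change below 0, with a median of -0.40. Lower levels with an unadjusted p under 0.05 were found for 10 of the 15, beside 4.66% of all tested, and 2 fell after adjustment, beside 0.0537%. Acaa2, the thiolase of the last step, had a log2 change of -0.67 ± 0.12 (SE; limma, adjusted p = 0.0214). Ech1, an isomerase that handles unsaturated chains, had 624.7, 761 and 747 units in female TAC hearts, against 1090.2, 1237 and 1301 in female sham hearts. In male TAC hearts it had 918, 689 and 917, against 922 to 1330.3 in male sham hearts, so that all TAC arrays lay below all sham arrays, as for 0.161% of all probe sets. Its log2 change was -0.56 ± 0.11 (adjusted p = 0.0463). Both calls ended with a lower floor and without the filter on dim probe sets, with adjusted p from 0.0518 to 0.111. That of Acaa2 also ended without female TAC 2, male TAC 5, female sham 1 or female sham 3 (adjusted p up to 0.0798), and that of Ech1 in all runs without 1 array other than those without male TAC 6 or male sham 4 (adjusted p up to 0.195). The third by p, Eci1, another isomerase of this kind, had -0.63 ± 0.14 and was not called (adjusted p = 0.0694).

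**Figure D3:**
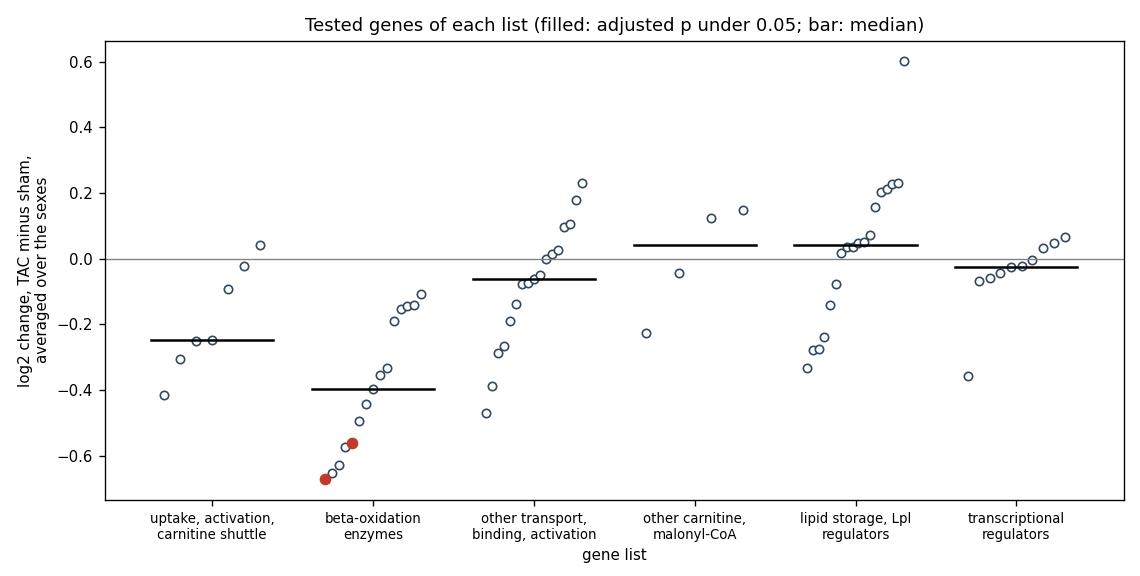
Averaged log2 change between TAC and sham hearts (vertical axis) for each tested gene of the transport genes described here and of 5 other lists, with the median as a bar; filled points have an adjusted p under 0.05. The 15 beta-oxidation enzymes lie below 0 with a median of -0.40, the 7 transport and shuttle genes have a median of -0.25, and the other lists have medians between -0.06 and 0.04.

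Other genes of fatty acid transport, binding, activation and hydrolysis had 17 tested of 32 and a median of -0.06. None was called, and the smallest p values were those of Slc27a5, a further transport protein, with -0.47 ± 0.19, Acss1, the mitochondrial acetyl-CoA synthetase, with -0.26 ± 0.12, and Vldlr, the very low density lipoprotein receptor, with 0.23 ± 0.10 (SE; limma, adjusted p of 0.580, 0.618 and 0.621). Slc27a5 was dim, with 0 to 46.0 units. It lay below the floor on 3 arrays, namely female TAC 3, male TAC 4 and male TAC 5. Fabp4, the binding protein of fat and endothelial cells, was below the floor on all arrays. Other carnitine and malonyl-CoA genes had 4 tested of 12, a median of 0.04 and no call. Among them Slc22a5, the carnitine transporter of the plasma membrane, had -0.23 ± 0.13, Cpt1a, the liver form of the outer-membrane transferase, had 0.15 ± 0.16, and Slc22a21, a transporter of the same family, had 0.12 ± 0.17 (adjusted p of 0.754, 0.884 and 0.911). All of these were dim. Slc22a5 read 16.9 to 31.5 units with 4 arrays below the floor, Cpt1a 15.5 to 36.1 with 3, and Slc22a21 19.8 to 48.6 with 1.

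Lipid storage genes and regulators of lipoprotein lipase had 18 tested of 29, with a median of 0.04 and no call. Agpat1, an acyltransferase of glycerolipid synthesis, had -0.24 ± 0.10, Apoa5, an apolipoprotein that promotes lipase action, had -0.28 ± 0.13, and Lpin1, a phosphatidate phosphatase, had -0.33 ± 0.16 (SE; limma, adjusted p of 0.592, 0.627 and 0.682). Transcriptional regulators, listed together with subunits of AMP-activated kinase, had 10 tested of 20 and a median of -0.02. Prkab1, one of these kinase subunits, had -0.36 ± 0.13 (adjusted p = 0.447), while Ppara itself had -0.06 ± 0.09 and Esrra, the estrogen-related receptor alpha, -0.07 ± 0.09 (adjusted p = 0.923 and 0.911). Prkab1 was dim, with 16.4 to 44.1 units and 2 arrays below the floor. Ppargc1a, Pparg and Rxrg were below the floor on all arrays.

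Left ventricle holds several cell types, and Cd36 and Lpl are also made by some of them, so that fewer cells of a type and less RNA per cell cannot be told apart. All 11 cardiomyocyte markers with a probe set were tested, and their median log2 change was -0.05, with 7 of them below 0, beside 58.2% of all probe sets. Nppa was the only one called, beside 0.322% of all probe sets. Ryr2, the calcium release channel, had -0.52 ± 0.13 and Myh6, the alpha myosin heavy chain, had -0.32 ± 0.13 (SE; limma, adjusted p = 0.166 and 0.559). Both were lower at an unadjusted p under 0.05, beside 4.66% of all probe sets. Myh6 read 2605 on female TAC 1, against 4147 to 5321 on the other TAC arrays and 4862 to 5968 in sham hearts. Its change was -0.49 ± 0.20 in females and -0.14 ± 0.17 in males (SE). The part of the cardiomyocyte markers in the values of the transport genes was not tested. Fat cell markers (5 tested of 8 with a probe set, median -0.03), endothelial markers (8 of 9, median -0.01) and macrophage and leukocyte markers (7 of 12, median 0.01) had no member at an unadjusted p under 0.05. The share over all probe sets was 7.51%, so lists this short would hold few such genes at that share. Summed intensities of the fat cell markers ran from 289 to 359 in TAC hearts and from 319 to 391 in sham hearts. Those of the endothelial markers ran from 502 to 749 in TAC hearts and from 471 to 694 in sham hearts. Fabp4 and Cidec of the fat cell list, Kdr of the endothelial list and 5 of the macrophage list were below the floor on all arrays. Of the 10 fibroblast markers, 6 were higher in TAC hearts at an unadjusted p under 0.05, beside 2.86% of all probe sets, and 2 were lower, beside 4.66%. From this list 1 (Postn) was called, beside 0.322% of all, and the list median was 0.40. Their summed level was 1694 to 2691 in TAC and 1318 to 1747 in sham hearts. The part of the fibroblast markers in the values of the transport genes was not tested either. Red blood cell markers had a median of -0.06 and skeletal muscle markers one of -0.10, with no call in either list.

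The members also varied together within groups. After each array's value was taken as its deviation from the group mean on the log2 scale, the 15 pairs among the 6 genes other than Fabp3 all had a Pearson r above 0 over the 15 arrays, from 0.15 to 0.81. Cpt2 and Crat had the highest (r = 0.81, rho = 0.79), followed by Slc25a20 and Crat (r = 0.77, rho = 0.74) and by Lpl and Cpt2 (r = 0.75, rho = 0.68). Slc25a20 and Cpt2 had r = 0.65 and rho = 0.62. Fabp3 had r below 0 with 5 of the other 6, down to -0.53 with Slc25a20. These are descriptions, and the part of the overall level of each array in them was not tested. The median of all tested probe sets on an array had r from 0.60 to 0.68 with the brightest probe set of each of the 6 genes and -0.56 with Fabp3. It had r = 0.31 with the dimmer Lpl probe set and 0.24 with the second Crat probe set.

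**Figure D4:**
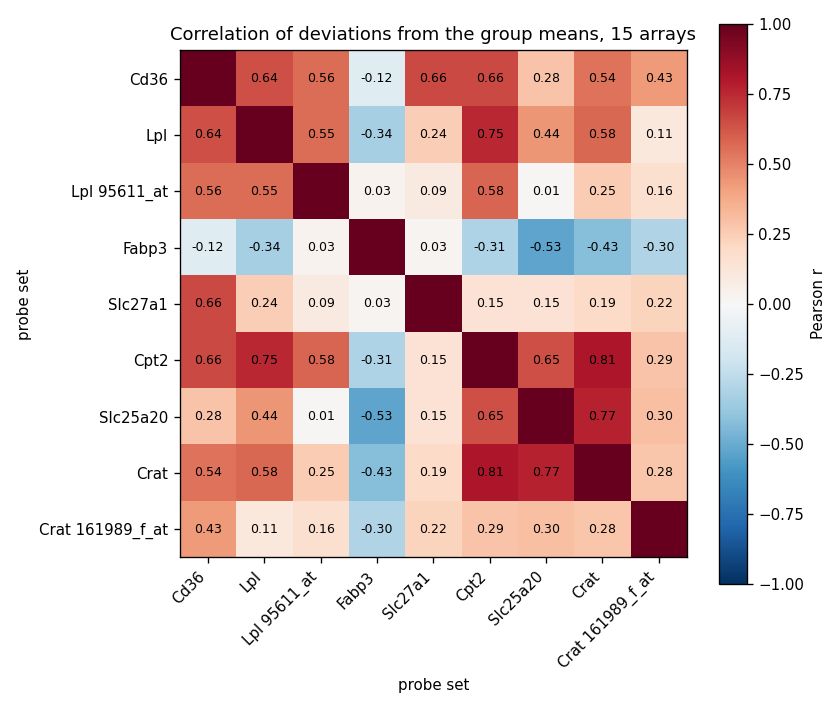
Pearson correlation of the log2 deviations from the group means between each pair of member probe sets over the 15 arrays (rows and columns, probe sets; colour and number, r). The row of Fabp3 holds the values below 0, down to -0.53, and Cpt2 with Crat has the highest value, 0.81.

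The named probe sets most like each member across the 15 arrays, by the same deviations, were picked as the highest of all 7453 tested and are high for that reason. They were Fahd1 and Lin7c for Cd36 (r = 0.94 and 0.90), Gpr27 and Fbxo3 for Lpl (0.92 and 0.91), Zmat3 and Fbxo6 for Slc27a1 (0.86 and 0.83), and Kap and Pip4k2a for Fabp3 (0.84 and 0.83). For the shuttle genes they were Rps28 and Ogn for Cpt2 (0.96 and 0.93), Scarb1 and Polr1a for Slc25a20 (0.92 and 0.89), and Arf1 and 4933434E20Rik for Crat (0.94 and 0.93). Spearman rho for these pairs lay between 0.79 and 0.96.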

How the data were processed

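Each deposited value is an intensity of a probe set in arbitrary linear units. How the authors scaled the arrays, and with which software, is not given in the sources used here. Array medians lay between 21.3 and 26.7 units, and precision is limited by the number of arrays. The 66 control probe sets were left out, values below 20 were set to 20, which makes changes of dim genes smaller, log2 was taken, and the brightest 60% of probe sets by mean were tested. Probe sets were named by GEO's platform annotation, and a RefSeq table gave current symbols (10817 of 10833 matched). With limma 3.58.1 (lmFit, eBayes; R 4.3.3), the 15 arrays were fitted together, each of the 4 groups having its own mean, and calls were made at a Benjamini-Hochberg adjusted p of 0.05 over 7453 probe sets, and fold values are ratios of geometric means. The contrasts, 12 alternative settings, 15 runs without 1 array and an exact permutation test were computed for each member. The method was tested on simulated data with known changes. A gene with several probe sets is represented by the brightest.

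The member genes and all lists were chosen with earlier results of these data known. Named genes were all members, and in each pathway list the called genes and the 3 of smallest p. The labels name no batch, and none was tested. TAC and sham titles share the numbers 1 to 6. The deviations of same-numbered samples from their group means correlated at 0.244, 0.270 and 0.117 in females and 0.0641, -0.0828 and 0.0136 in males. All female values and none of the male values were above 0.1, the limit set for pairing. The main fit did not take the numbers as pairs. Whether same-numbered female samples were processed together was not tested.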

Additional observations from a re-analysis of the deposited data

How the results depend on the processing

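The count of member probe sets called was 0 in each of the 6 contrasts under every alternative run and in all 15 runs without 1 array, and the smallest adjusted p among them was 0.0542, for the averaged effect on Crat with array weights. The median averaged log2 change of the 7 genes stayed between -0.30 and -0.17. Crat and Cpt2 kept a value below 0 in each run, while Crat had an unadjusted p under 0.05 in 11 of 11 alternatives and 15 of 15 runs without 1 array, and Cpt2 in 9 of 11 alternatives and 9 of 15 runs without 1 array. Among 1049 member values, 19 changed sign, and the unadjusted p of each value so turned was 0.561 or more. Centring the arrays gave 0.036 for the averaged effect on Fabp3 and 0.022 for Slc25a20 in females. Array weights gave 0.015 for Cd36 in females and 0.085 for the sex difference of the effect on the dimmer Lpl probe set. With the replicate number as a block these were 0.0049 for the second Crat probe set in males and 0.13 for that sex difference, and the block changed no member's call. It ended the calls of Acaa2 (adjusted p = 0.0834) and Ech1 (adjusted p = 0.324). In runs without 1 array the averaged change ran from -0.15 to 0.016 for Slc27a1 and from -0.012 to 0.10 for Slc25a20. In females it ran from -0.27 to 0.0048 for Cd36 and from -0.17 to 0.062 for Slc25a20, and in males from -0.18 to 0.023 for Lpl and from -0.25 to 0.056 for the second Crat probe set. The sex difference of the effect ran from -0.18 to 0.12 for the dimmer Lpl probe set and from -0.22 to 0.045 for Crat. The cause was not tested. Over all probe sets the averaged effect had 24 calls, 8 to 68 under the alternatives (8 with the block, 68 with array weights) and 12 (without male TAC 5) to 29 (without male TAC 6) in runs without 1 array.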

Other observations

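Within each array, the intensity of the brighter Crat probe set was set over that of Slc25a20, which cancels the level of the array. Crat loads and unloads acetyl groups on the carnitine that Slc25a20 carries across the inner membrane. The ratio has no meaning in itself, since it compares different probe sets, but it can be followed between arrays. It was 0.513, 0.504 and 0.513 in female TAC hearts, against 0.585, 0.773 and 0.657 in female sham hearts. It was 0.422, 0.420 and 0.458 in male TAC hearts, against 0.552 to 0.705 in male sham hearts. All 6 TAC arrays thus lay below all 9 sham arrays, while each of the genes alone overlapped between the groups. This was the single pair without overlap among 36 pairs of member probe sets. With the second Crat probe set the groups overlapped: Slc25a20 over it was 1.80 to 3.09 in TAC hearts and 1.45 to 2.17 in sham hearts. When every other tested probe set was set over Slc25a20 in the same way, 0.174% of 7452 ratios were lower in all TAC arrays than in any sham array and 0.107% were higher. The pair was picked after its values were seen, so no test is given.

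The dim probe sets of 2 members gave no usable level. That of Cd36 read between 0 and 12.6 units, although the other Cd36 probe set read between 53.7 and 106 on the same arrays. That of Cpt2 read 0 on all 3 male TAC arrays and also on female sham 2 and 3 and male sham 4, 5 and 6.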
